A study of Homo sapiens with 12 samples.

Results

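The 10 genes described here are CDH1, CDH3, EPCAM, CLDN4, CLDN7, ITGB4, VIM, FN1, SNAI2 and ZEB1, the adhesion genes of epithelial cells and the classical genes of the epithelial-mesenchymal transition. They were taken by symbol from the expression tables of the study, which together hold 56359 gene symbols. The rule names genes by their known role and uses no measured value, but earlier results of these data were known when it was set. Epithelial cells hold together through E-cadherin and P-cadherin in adherens junctions and through claudins in tight junctions, and they stand on laminin through the α6β4 integrin of hemidesmosomes. In the epithelial-mesenchymal transition, transcription factors of the SNAI and ZEB families bind E-box sequences and repress epithelial genes such as CDH1, while the intermediate filament vimentin and the matrix protein fibronectin become abundant. In breast cancer the basal-like tumors, to which most triple-negative breast cancers (TNBC) belong, often express P-cadherin and vimentin beside epithelial markers.

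RNA was sequenced from 12 libraries of the established TNBC cell lines HCC70 and MDA-MB468, with 1 library per condition and 24 h of treatment. There were 5 conditions for HCC70, namely vehicle, 1.25 μM XY018, 2.5 μM XY018, 1.25 μM atorvastatin (ATV), and the combination of 1.25 μM XY018 with 1.25 μM ATV. All 5 were repeated in MDA-MB468, where a further experiment with its own vehicle library tested GSK805 at 2.5 μM. XY018 and GSK805 are antagonists of the nuclear receptor RORγ, which binds DNA and activates transcription, and ATV is a statin that blocks the enzyme HMG-CoA reductase of cholesterol synthesis. For MDA-MB468 the labels give RPMI with serum and insulin and the methods of the study give DMEM with serum, while both give RPMI with serum for HCC70, so that cell line and medium cannot be told apart. Expression is given as FPKM, the fragments of a gene per length of transcript and per depth of library. The 3 tables were normalized separately, for HCC70, for XY018 and ATV in MDA-MB468, and for GSK805 in MDA-MB468. Treated libraries were therefore compared with the vehicle library that shares their table, as a log2 ratio with 0.1 FPKM added to both values, which understates the change of weakly expressed genes. A gene was compared when it reached 1 FPKM in at least one of the libraries, and was counted as risen or fallen at 1.5-fold, a log2 ratio of 0.58. No condition has a replicate, so no p-value is given and no difference could be set against the spread between cultures. The depth, estimated from the spacing of FPKM values of weakly expressed genes, ranged from 8980000 to 10200000 fragments for HCC70 and from 17500000 to 19200000 for the XY018 and ATV experiment of MDA-MB468, and the GSK805 pair had 8410000 to 8540000. The 95% intervals given below (exact Clopper-Pearson on the estimated fragments, without the added 0.1) cover counting error only.

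All 6 epithelial markers examined (KRT7, KRT8, KRT18, KRT19, CDH1 and EPCAM) were above 1 FPKM in all 12 libraries. PGR was at 0 or not listed, and ESR1 was at 0.37 to 0.67 FPKM except in the GSK805 table, where it was at 1.77 with vehicle and 5.67 with GSK805. EGFR, which is amplified in MDA-MB468, was at 944 and 617 FPKM in the vehicle libraries of that line and at 47.95 in HCC70 vehicle. SMAD4, which MDA-MB468 cells are known to lack, was at 0.05 and 0.17 FPKM in these vehicle libraries and at 5.58 in HCC70 vehicle, but at 1.05 with GSK805, and it was added to this check after its values were seen. Of 8 fibroblast markers, 1 or 2 reached 1 FPKM in any library, and COL1A2, DCN, LUM and THY1 were at 0.07 FPKM or below or not listed. Summed, the fibroblast markers reached 3.89 to 5.84 FPKM per HCC70 library. In MDA-MB468 they reached 5.94 to 8.97 with XY018, ATV or their vehicle, 12.3 with the vehicle of GSK805 and 19.4 with GSK805. Among the 6 blood and vessel markers the leukocyte gene PTPRC stayed at 1.06 FPKM or below and CD3E at 0.14 or below. CD14, a co-receptor for bacterial lipopolysaccharide, was at 170 FPKM in HCC70 vehicle against 317, 419 and 380 in the libraries with XY018, and at 17.9 in MDA-MB468 vehicle against 8.94, 7.33 and 6.16. CDH5, the cadherin of endothelium, was at 0.25 FPKM in HCC70 vehicle against 1.64, 1.93 and 2.28 in the libraries with XY018, and at 0.03 or below in MDA-MB468. The summed blood and vessel markers followed CD14, between 172 and 423 FPKM for HCC70 libraries, between 7.20 and 18.7 for MDA-MB468 libraries of the XY018 and ATV experiment, while the GSK805 pair had 93.7 and 51.9. The part of these markers in the results below was not tested.

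The vehicle libraries of MDA-MB468 differed from each other in VIM and FN1, and this stands before the results that rest on them. VIM was at 1.78 FPKM in the vehicle of the XY018 and ATV experiment and at 61.5 in the vehicle of the GSK805 experiment, which is percentile 6.44 and percentile 83.6 among the genes at 1 FPKM or above in each library. FN1 was at 24.8 and 334 FPKM, percentiles 72.3 and 96.9. ITGB4 was at 43.6 and 152 FPKM, percentiles 83.9 and 93.0. CDH1 was at percentiles 78.9 and 78.1, and EPCAM at 94.7 and 93.1. These percentiles are taken over different sets of genes. Among the genes listed in all tables, with those below 1 FPKM included, they were 84.8 and 81.9 for CDH1, 96.2 and 94.9 for EPCAM, 33.6 and 86.6 for VIM and 80.05 and 98.05 for FN1. Over 11957 genes the median log2 ratio between these vehicle libraries was 0.56, with 95% of genes between -1.22 and 2.93, so that VIM at 5.04 and FN1 at 3.74 lay beyond that range. The other 7 genes with a value above 0 lay within it, ZEB1 included. The cause of this difference was not tested, and levels are not compared further between the tables.

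The upstream sequence was at hand for 5 of the 10 genes, with 12 annotated starts, from RefSeq on GRCh38.p14, and the entries of CDH1, CDH3, EPCAM, ITGB4 and SNAI2 are missing. The windows of VIM and FN1, the mesenchymal genes that moved in MDA-MB468, and of the claudin genes CLDN4 and CLDN7 are shown as the 250 bases before the first annotated start. Each was searched on both strands for the E-box bound by SNAI2 and ZEB1 (CAGGTG or CACCTG) and for the core hexamer of ROR response elements (AGGTCA or TGACCT), and matches are in capitals. The motifs do not overlap in these windows.
VIM, chr10:17227991-17228240, plus strand: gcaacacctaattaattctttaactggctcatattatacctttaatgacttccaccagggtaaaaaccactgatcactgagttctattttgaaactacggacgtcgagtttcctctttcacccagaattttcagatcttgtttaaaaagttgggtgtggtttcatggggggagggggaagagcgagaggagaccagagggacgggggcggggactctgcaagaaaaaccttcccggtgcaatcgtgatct
FN1, chr2:215436069-215436318, minus strand: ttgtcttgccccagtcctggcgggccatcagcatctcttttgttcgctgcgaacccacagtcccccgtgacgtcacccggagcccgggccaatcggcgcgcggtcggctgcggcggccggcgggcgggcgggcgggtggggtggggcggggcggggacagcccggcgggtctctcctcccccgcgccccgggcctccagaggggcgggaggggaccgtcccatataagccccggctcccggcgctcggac
CLDN4, chr7:73830746-73830995, plus strand: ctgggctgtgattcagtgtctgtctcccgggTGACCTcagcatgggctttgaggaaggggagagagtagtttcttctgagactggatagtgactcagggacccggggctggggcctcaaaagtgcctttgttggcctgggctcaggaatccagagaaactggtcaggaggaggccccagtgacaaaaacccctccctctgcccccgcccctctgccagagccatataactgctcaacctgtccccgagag
CLDN7, chr17:7263214-7263463, minus strand: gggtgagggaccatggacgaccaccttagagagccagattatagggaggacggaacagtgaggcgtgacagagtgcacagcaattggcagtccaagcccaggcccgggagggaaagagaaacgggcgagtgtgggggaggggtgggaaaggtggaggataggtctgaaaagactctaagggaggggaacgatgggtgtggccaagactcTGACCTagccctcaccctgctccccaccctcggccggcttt
The windows of VIM and FN1 held neither motif. CLDN4 held TGACCT beginning 219 bases before its start, and CLDN7 held TGACCT beginning 41 bases before. At a second start of CLDN7 the window held 4 E-boxes and 1 ROR hexamer. Of the 7 starts of ZEB1, the first had 1 E-box and the third had 2. Across 35116 windows of the same length, 17.5% held the E-box and 12.1% the ROR hexamer, and a match is a description and not a binding site.

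In vehicle-treated HCC70 cells the epithelial genes were among the most abundant transcripts. CDH3 was at 243 FPKM, CLDN7 at 203, CLDN4 at 184 and CDH1 at 168, at percentiles 96.8 to 97.95 of the expressed genes. EPCAM followed at 69.1 FPKM, FN1 at 61.9 and ITGB4 at 24.1. SNAI2 was at 5.14 FPKM, VIM at 1.32 and ZEB1 at 0.25. In the vehicle library of the XY018 and ATV experiment of MDA-MB468 the order was CLDN7 at 178 FPKM, EPCAM at 112, CLDN4 at 103, ITGB4 at 43.6, CDH1 at 33.1, CDH3 at 31.8 and FN1 at 24.8. The counting intervals of CDH1 and CDH3 overlap there, and no replicate shows the spread of any neighbours in these orders. VIM was at 1.78 FPKM, ZEB1 at 0.04 and SNAI2 at 0.

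**Figure D1:**
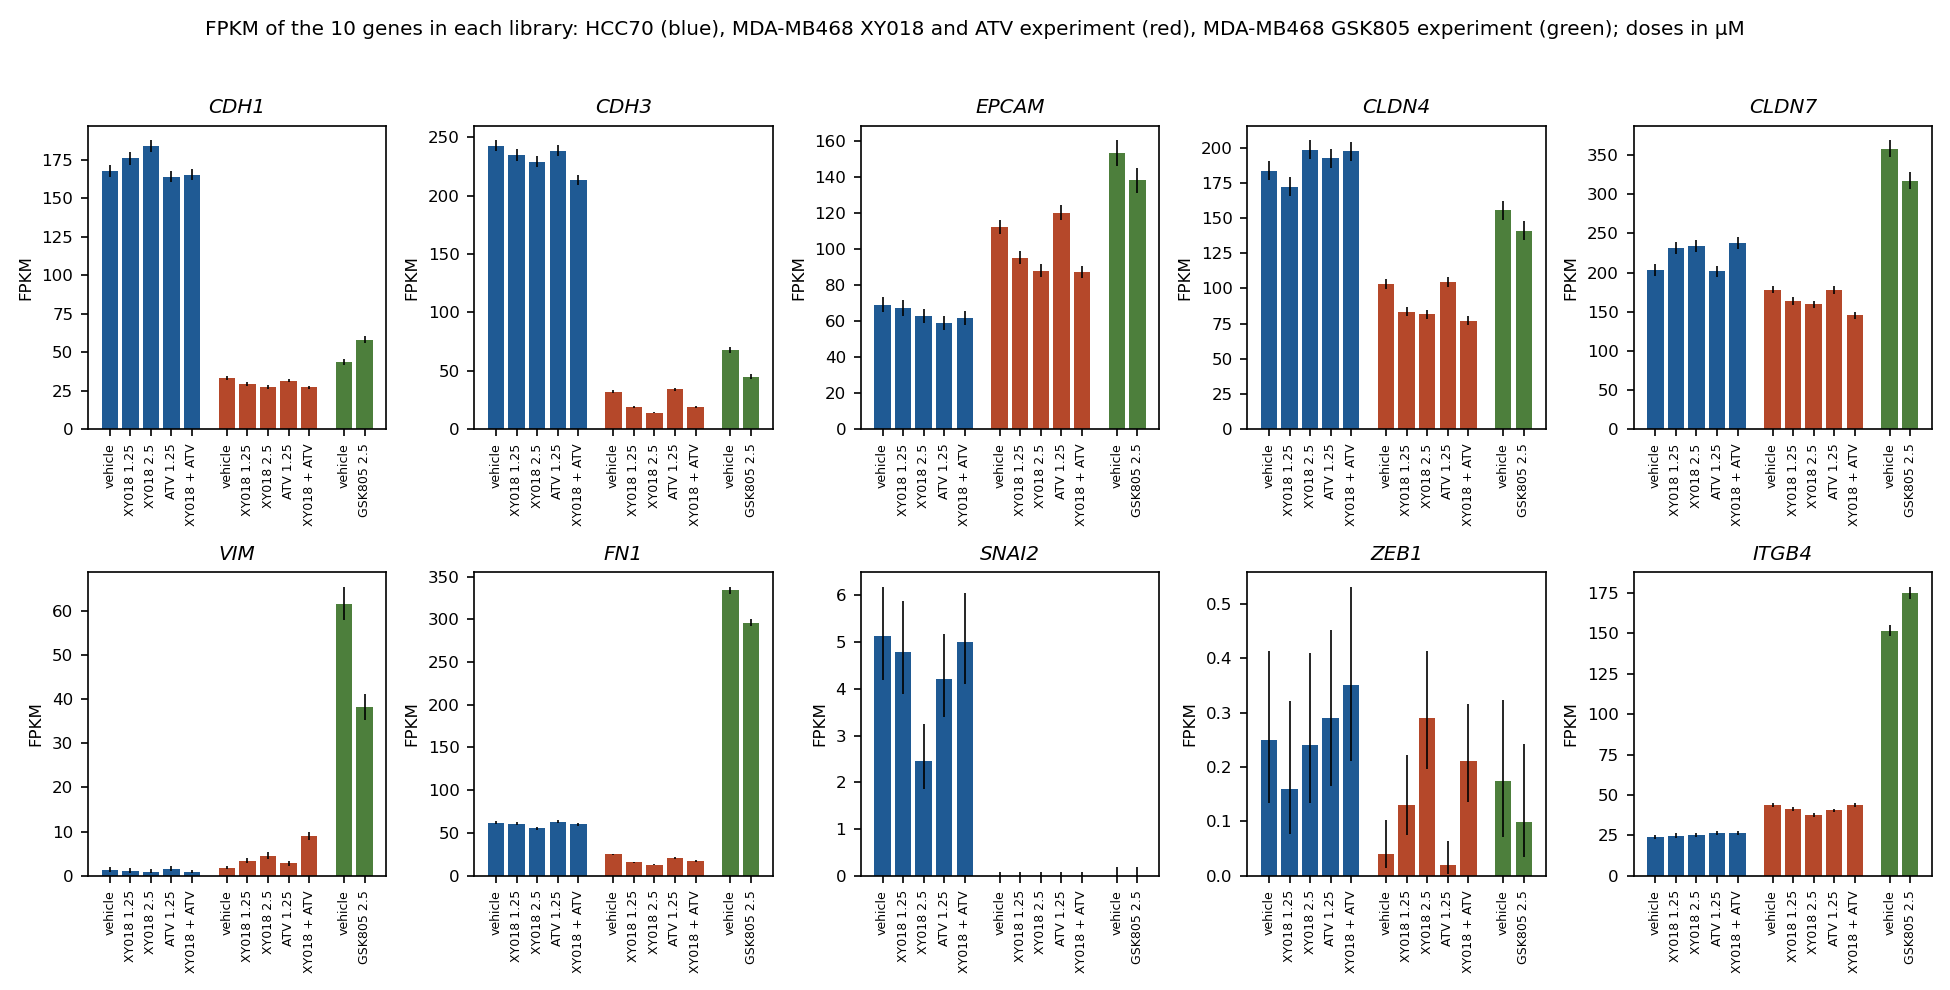
FPKM of each of the 10 genes (y axis, linear, from 0) in each of the 12 libraries (x axis, doses in μM; XY018 + ATV at 1.25 μM each), in blue for HCC70, red for the XY018 and ATV experiment of MDA-MB468 and green for its GSK805 experiment. Bars are single libraries and lines are 95% Poisson counting intervals; the colors mark separately normalized tables, and VIM shows 1.78 to 9.00 FPKM in red and 61.5 and 38.1 in green.

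In HCC70 the genes past 1.5-fold are given beside the share of all genes, and with so few members nothing is read from their counts. Of the 10 genes, 9 could be compared there, because ZEB1 was below 1 FPKM in every library. With XY018 at 1.25 μM none of the 9 passed 1.5-fold, where 4.57% of all 11738 genes did. At 2.5 μM SNAI2 fell and the other 8 stayed within 1.5-fold, against 5.88% of all genes. None passed with ATV, against 3.54% of all genes, and none with both compounds, against 7.32%.

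In MDA-MB468 SNAI2 and ZEB1 were below 1 FPKM, which left 8 genes to compare. XY018 at 1.25 μM was accompanied by a rise of VIM and falls of CDH3 and FN1, 3 of 8 genes where 18.1% of all 11844 genes passed 1.5-fold. The same genes passed at 2.5 μM, against 28.6% of all genes. With ATV only VIM passed, against 2.17% of all genes, and with both compounds VIM rose and CDH3 fell, against 25.2%. With GSK805 both CDH3 and VIM fell, against 34.2% of 19951 genes. With so few genes, nothing about the members is read from these shares. The median log2 ratio of the compared members was -0.21 and -0.31 with XY018 at 1.25 and 2.5 μM and -0.33 with both compounds, where the median of all genes was 0.01, 0.00 and 0.01. In HCC70 it lay between -0.09 and -0.01 in the 4 comparisons, with the median of all genes between -0.02 and -0.01. These comparisons share the vehicle library of their table.

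**Figure D2:**
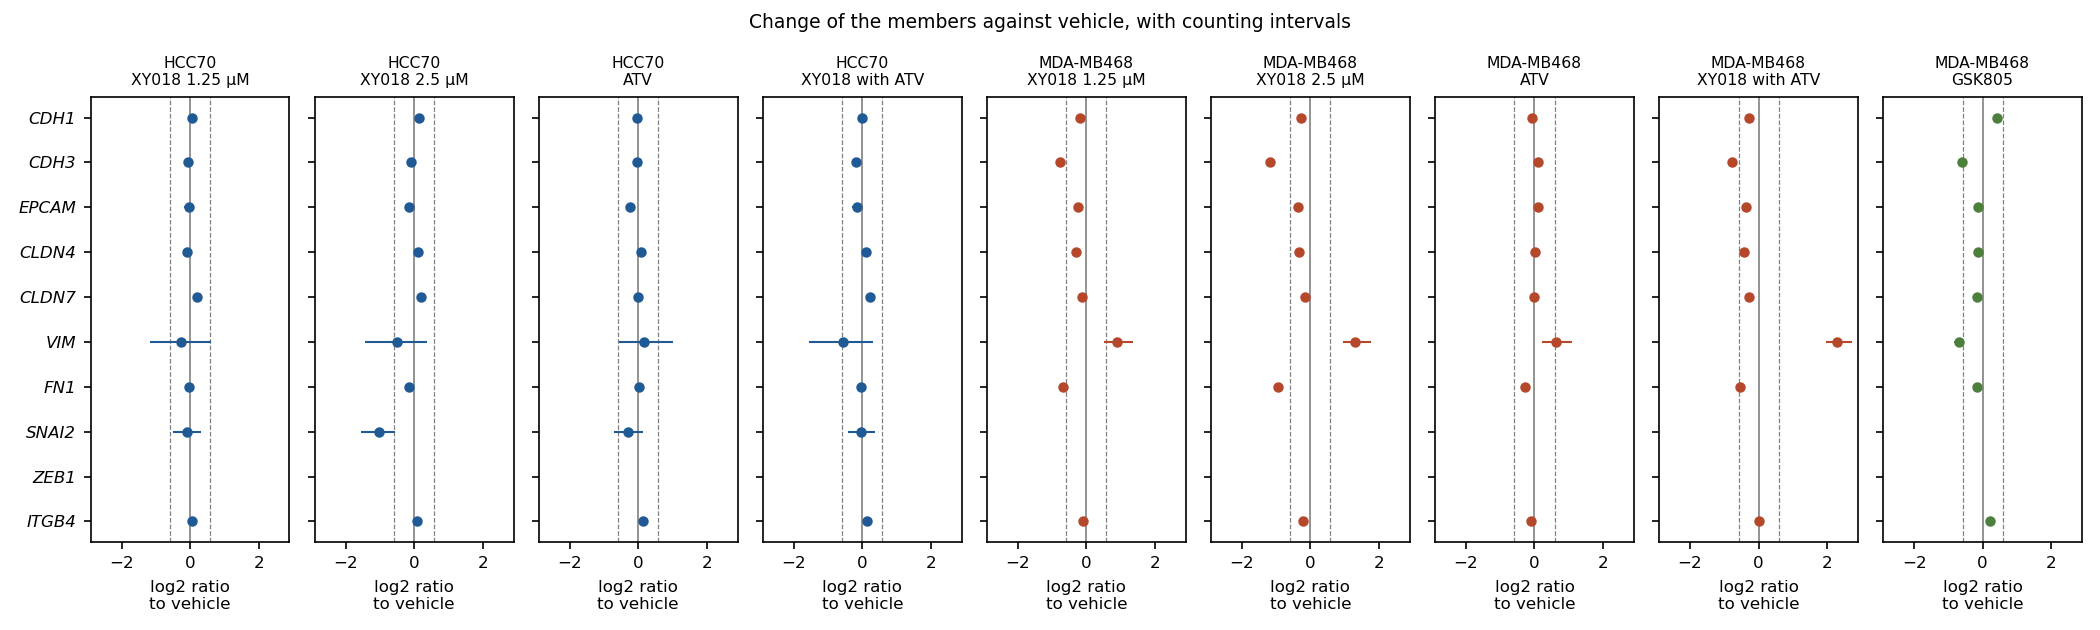
Log2 ratio of treated to vehicle FPKM (x axis, 0.1 added) for each gene (y axis) in the 9 treated libraries, with horizontal lines for 95% counting intervals and dashed lines at 1.5-fold. ZEB1 in both lines and SNAI2 in MDA-MB468 have no point because they stayed below 1 FPKM; VIM lies right of the dashed line in the 4 red panels and left of it with GSK805.

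CDH1 encodes E-cadherin, the main adhesion receptor of epithelial cells (chr16:68771195-68869440, plus strand, GRCh37). In HCC70 it was at 168 FPKM with vehicle, 176 and 184 with XY018 at 1.25 and 2.5 μM, 164 with ATV and 165 with both. These values span 1.12-fold, and no library stood apart. MDA-MB468 had 33.1 FPKM with vehicle, 29.2 and 27.4 with XY018, 31.4 with ATV and 27.1 with both. The log2 ratio was -0.27 at 2.5 μM (interval -0.35 to -0.19), short of 1.5-fold. GSK805 was set against its vehicle at 58.0 and 43.6 FPKM, a log2 ratio of 0.41 (interval 0.32 to 0.51) that also stayed short of 1.5-fold. E-cadherin transcript therefore had the higher value under GSK805 and the lower value under XY018 in the same line, each against its own vehicle.

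CDH3 encodes P-cadherin, which marks basal epithelium, and lies next to CDH1 on the same strand (chr16:68670092-68761371). In HCC70 it was at 243 FPKM with vehicle, 235 and 229 with XY018, 239 with ATV and 213 with both, a span of 1.14-fold. MDA-MB468 had 31.8 FPKM with vehicle and 34.1 with ATV, but 18.7 with the lower dose of XY018, 14.1 with the higher dose and 18.5 with both compounds. All 3 libraries with XY018 lay below both libraries without it. The log2 ratios were -0.76 (interval -0.85 to -0.67), -1.17 (-1.28 to -1.07) and -0.78 (-0.87 to -0.69), falls of 1.69-fold, 2.25-fold and 1.71-fold. With GSK805 it fell from 67.5 to 44.6 FPKM, a log2 ratio of -0.60 (-0.69 to -0.51) that lies just past the threshold. P-cadherin transcript was the only one of the 10 that fell past 1.5-fold in all 4 MDA-MB468 libraries treated with an antagonist. Its ratios lay at percentiles 4.87, 3.68, 7.40 and 16.2 of all genes compared in these libraries. Of all genes 18.1%, 28.6%, 25.2% and 34.2% passed 1.5-fold there, and the 3 libraries with XY018 share 1 vehicle library. The GSK805 table lists CDH3 in 2 entries, and the weaker one was at 1.28 FPKM with vehicle and 0.615 with GSK805.

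EPCAM encodes an adhesion molecule of the epithelial cell surface (chr2:47572297-47614740, plus strand). It was at 69.1 FPKM in HCC70 with vehicle, 67.0 and 62.5 with XY018, 58.8 with ATV and 61.7 with both. EPCAM in MDA-MB468 was at 112 FPKM with vehicle, 120.1 with ATV, 95.1 and 87.8 with the lower and higher dose of XY018, and 87.3 with the combination. The 3 libraries with XY018 were again the lowest, with log2 ratios of -0.24 to -0.36, all short of 1.5-fold. GSK805 gave 138 FPKM against 153 with vehicle, a log2 ratio of -0.15 (-0.25 to -0.05).

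CLDN4 (chr7:73213872-73247020, plus strand) and CLDN7 (chr17:7163222-7167302, minus strand) encode claudins, which form the strands of tight junctions. CLDN4 was at 184 FPKM in HCC70 with vehicle, 172 and 199 with XY018, 193 with ATV and 198 with both. CLDN4 in MDA-MB468 was at 103 FPKM with vehicle, 83.4 and 81.6 with XY018, 104.6 with ATV and 77.0 with both. CLDN4 had its lowest values in the libraries with XY018, with log2 ratios between -0.31 and -0.43, none past 1.5-fold. CLDN7 was at 203 FPKM in HCC70 with vehicle and 202 with ATV, and at 231, 234 and 238 in the libraries with XY018. In MDA-MB468 it was at 178 FPKM with vehicle and with ATV, and at 163, 159 and 146 in the libraries with XY018. At 2.5 μM its log2 ratio was 0.21 for HCC70 (interval 0.14 to 0.28) but -0.16 for MDA-MB468 (-0.22 to -0.10), so that the values lay on opposite sides of vehicle in these lines without passing 1.5-fold in either. In the GSK805 pair CLDN4 was at 155 and 141 FPKM and CLDN7 at 358 and 318.

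ITGB4 encodes the β4 chain of the laminin-binding α6β4 integrin (chr17:73717408-73753899, plus strand). It varied least of the genes in HCC70, from 24.1 FPKM with vehicle to 26.4 with ATV, a span of 1.10-fold. The MDA-MB468 values were 43.6 FPKM with vehicle, 41.1 and 37.5 with XY018, 40.4 with ATV and 43.7 with both. With GSK805 it was at 175 FPKM against 152 with vehicle, a log2 ratio of 0.21 (0.16 to 0.25). No comparison carried it past 1.5-fold.

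VIM encodes vimentin, the intermediate filament of mesenchymal cells (chr10:17270240-17279592, plus strand). Among the 8 genes compared in MDA-MB468 its log2 ratio to vehicle was furthest from 0 in all 5 comparisons. With 1 FPKM added in place of 0.1, CDH3 was further from 0 than VIM with XY018 alone. CDH3 then had -0.73 against 0.67 for VIM at 1.25 μM, and -1.12 against 0.99 at 2.5 μM. In HCC70 the furthest was VIM with XY018 at 1.25 μM and with both compounds. It was SNAI2 there with XY018 at 2.5 μM and with ATV. VIM in HCC70 was at 1.32 FPKM with vehicle, 1.09 and 0.91 with XY018, 1.51 with ATV and 0.87 with both. Those values rest on 18 to 33 estimated fragments, and all 4 counting intervals against vehicle include 0. VIM in MDA-MB468 was at 1.78 FPKM with vehicle, 3.41 and 4.53 with XY018 at 1.25 and 2.5 μM, 2.78 with ATV and 9.00 with both. Every treated library of that table lay above vehicle, and the library with both compounds was highest. The log2 ratios were 0.90 (0.52 to 1.37), 1.30 (0.94 to 1.76), 0.62 (0.21 to 1.09) and 2.28 (1.97 to 2.72), rises of 1.87-fold, 2.46-fold, 1.53-fold and 4.84-fold on the scale with 0.1 added. Even at its highest in this table VIM was at percentile 43.1 of the expressed genes. With GSK805 VIM fell from 61.5 to 38.1 FPKM, a log2 ratio of -0.69 (-0.84 to -0.55). COL1A1, the most abundant of the fibroblast markers, was at 4.96 FPKM with vehicle and at 8.43, 8.21 and 8.49 in the libraries with XY018, where COL1A2, DCN, LUM and THY1 were at 0.07 FPKM or below.

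FN1 encodes fibronectin, a matrix protein bound by integrins (chr2:216225163-216300796, minus strand). In HCC70 it was at 61.9 FPKM with vehicle, 60.4 and 55.3 with XY018, 63.0 with ATV and 59.9 with both. FN1 in MDA-MB468 was at 24.8 FPKM with vehicle, 15.5 and 12.9 with XY018 at 1.25 and 2.5 μM, 20.6 with ATV and 17.2 with both. All treated libraries lay below vehicle, and those with XY018 were lowest. FN1 fell with XY018 alone, by 0.68 (interval -0.76 to -0.61) and 0.94 (-1.03 to -0.87) on the log2 scale, while its log2 ratio of -0.53 with both compounds was short of 1.5-fold. GSK805 gave 296 FPKM against 334 with its vehicle. VIM and FN1, both counted as mesenchymal genes, thus moved in opposite directions in MDA-MB468 treated with XY018 alone.

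SNAI2, on chromosome 8, encodes the repressor Slug, which is active in basal breast epithelium. In HCC70 it was at 5.14 FPKM with vehicle, 4.78 with XY018 at 1.25 μM, 2.45 at 2.5 μM, 4.2 with ATV and 5.01 with both. Only the library with XY018 at 2.5 μM stood apart, with a fall of 2.05-fold and a log2 ratio of -1.04 (-1.56 to -0.56), percentile 0.8 of all genes compared. In MDA-MB468 SNAI2 was listed at 0 in all 7 libraries, which at these depths allows up to 3 fragments, or 0.0723 to 0.180 FPKM. SNAI2 transcript was thus measurable in HCC70 and not detectable in MDA-MB468.

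ZEB1 encodes a repressor of CDH1 (chr10:31607424-31818742, plus strand). It was at 0.16 to 0.35 FPKM in HCC70, with 9 to 20 estimated fragments per library. ZEB1 in MDA-MB468 was at 0.04 FPKM with vehicle, 0.02 with ATV, 0.13 and 0.29 with the lower and higher dose of XY018, and 0.21 with both compounds. This corresponds to 5 and 2 estimated fragments without XY018 and to 15, 30 and 24 with it, and the counting interval of the log2 ratio at 2.5 μM ran from 1.34 to 4.44. The GSK805 pair had 0.17 and 0.10 FPKM, with 8 and 5 fragments. Within the XY018 and ATV experiment of MDA-MB468 the values with XY018 lay above those without it. In every library ZEB1 remained below the 1 FPKM set for a comparison.

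The dose of XY018 was examined as the ratio of 2.5 to 1.25 μM within each table. In HCC70 SNAI2 fell from 4.78 to 2.45 FPKM, a log2 ratio of -0.94 (-1.48 to -0.45), as the only 1 of 9 genes past 1.5-fold, against 2.53% of all genes. In MDA-MB468 none of 8 passed, against 2.76% of all genes. The steps furthest from 0 there were CDH3 at -0.41 (-0.53 to -0.30), VIM at 0.40 (0.07 to 0.74) and FN1 at -0.26 (-0.35 to -0.18), each in the direction it had at 1.25 μM. Of the 8 genes, 7 were at a lower value at 2.5 than at 1.25 μM, 5 of them with a counting interval below 0, and VIM was the exception. The median log2 ratio of this step was -0.10 for the 8 genes and -0.01 for all genes, so nothing is read from that count.

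Adding ATV to XY018 at 1.25 μM was compared with each compound alone. In MDA-MB468 VIM rose from 3.41 FPKM with XY018 alone to 9.00 with both, a log2 ratio of 1.37 (1.11 to 1.69) at percentile 99.8 of all genes, while the other 7 genes stayed within 1.5-fold and 3.87% of all genes passed. Against ATV alone VIM rose by 1.66 (1.38 to 2.01) and CDH3 fell by 0.87 (-0.97 to -0.79) on the log2 scale, where 22.8% of all genes passed. CDH3 was nearly the same with both compounds as with XY018 alone, at 18.5 and 18.7 FPKM (log2 ratio -0.02, interval -0.12 to 0.09). In HCC70 none of 9 genes passed against XY018 alone, where 5.71% of all genes did. Against ATV alone VIM passed with a log2 ratio of -0.73, where 5.27% of all genes passed, but its values of 1.51 and 0.87 FPKM are low and the counting interval (-1.76 to 0.03) includes 0.

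XY018 and GSK805 were both used at 2.5 μM for 24 h in MDA-MB468, but in different experiments and tables, so their ratios are set side by side without a test. CDH3 had a log2 ratio of -1.17 with XY018 and -0.60 with GSK805. VIM had 1.30 and -0.69, on opposite sides of vehicle, from vehicle levels of 1.78 and 61.5 FPKM. FN1 had -0.94 and -0.17, and CDH1 had -0.27 and 0.41. EPCAM had -0.36 and -0.15, CLDN4 had -0.34 and -0.14, CLDN7 had -0.16 and -0.17, and ITGB4 had -0.22 and 0.21. With GSK805 90% of 19951 genes lay between -1.46 and 1.60, and with XY018 90% of 11919 genes lay between -1.02 and 1.03. The quartiles were -0.38 and 0.40 with GSK805 and -0.35 and 0.35 with XY018. The sets of genes differ between these tables, so the wider range with GSK805 is not read as a broader response.

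A ratio between genes of the same library does not depend on the scaling of that library. The log2 ratio of CDH1 to VIM was 6.89 in HCC70 vehicle and between 6.67 and 7.51 in the 5 libraries of that line, but with 1 FPKM added in place of 0.1 it was 6.18 with vehicle, because VIM is near 1 FPKM there. In MDA-MB468 it was 4.14 with vehicle, 3.45 with ATV, 3.06 and 2.57 with XY018 and 1.58 with both. In the GSK805 pair it was -0.50 with vehicle and 0.61 with GSK805. E-cadherin transcript thus exceeded vimentin transcript in all libraries but the vehicle of the GSK805 experiment. The log2 ratio of CDH1 to CDH3 was -0.53 in HCC70 vehicle and stayed between -0.54 and -0.32. In MDA-MB468 it was 0.06 with vehicle and -0.12 with ATV, and 0.64, 0.95 and 0.55 in the libraries with XY018. It also went from -0.63 to 0.38 in the GSK805 pair. P-cadherin had the lower FPKM of these cadherins in all 4 MDA-MB468 libraries with an antagonist. By a small margin it was also the lower in the vehicle of the XY018 and ATV experiment, so only the GSK805 pair changed order against vehicle. The log2 ratio of CLDN4 to CLDN7 varied little, from -0.42 to -0.07 in HCC70, from -0.97 to -0.76 in the XY018 and ATV experiment of MDA-MB468, and from -1.20 to -1.17 in the GSK805 pair. The log2 ratio of FN1 to VIM was 3.73 in MDA-MB468 vehicle and 2.84 with ATV, and 2.15, 1.49 and 0.92 in the libraries with the lower dose of XY018, the higher dose and both compounds.

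**Figure D3:**
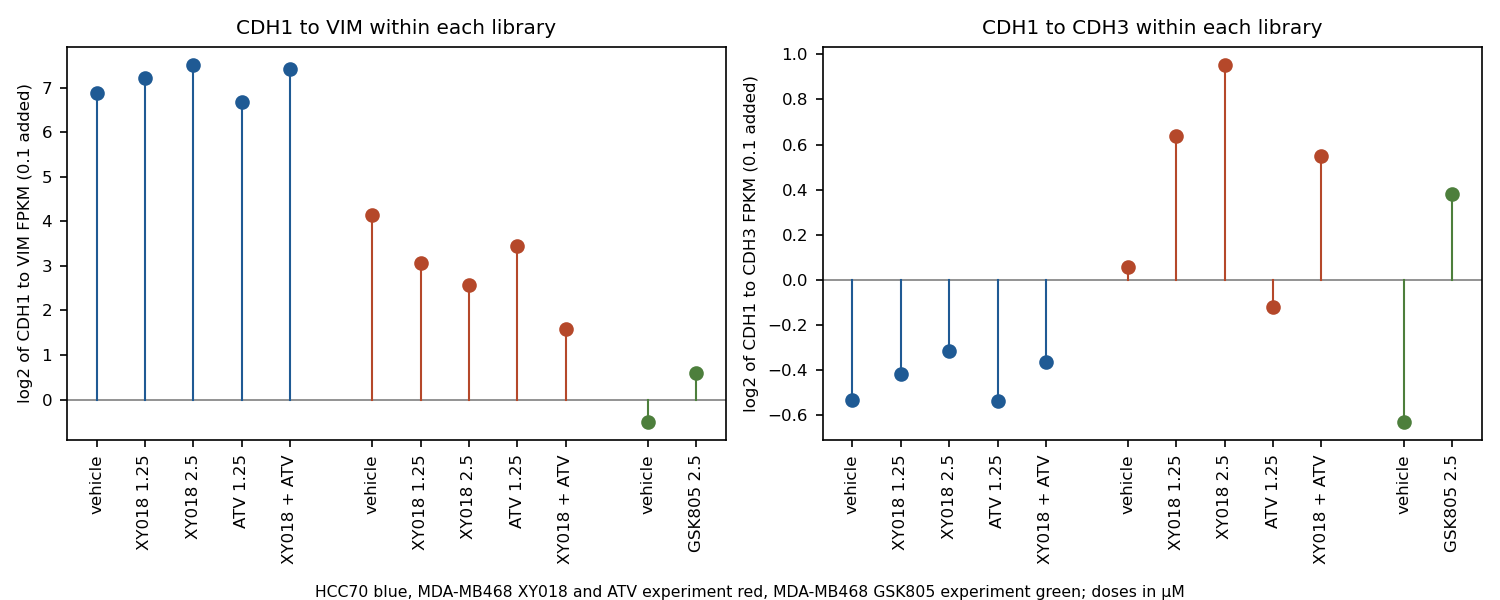
Log2 ratio of CDH1 to VIM (left) and of CDH1 to CDH3 (right) FPKM within each library (y axes, 0.1 added; x axis, treatment, doses in μM), with 1 point per library and a line to 0, in blue for HCC70, red for the XY018 and ATV experiment of MDA-MB468 and green for its GSK805 experiment. The CDH1 to VIM ratio goes from 4.14 with vehicle to 1.58 with both compounds in red. The CDH1 to CDH3 ratio is above 0 in all 4 MDA-MB468 libraries with an antagonist and, at 0.06, in the red vehicle library.

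The junction genes around these members were described by lists of pathway genes, which hold the members themselves. In MDA-MB468, where most of their counts fall, the shares of all genes past 1.5-fold were 18.1% and 28.6% with XY018 at 1.25 and 2.5 μM, 25.2% with both compounds and 34.2% with GSK805, and in HCC70 they were 4.57%, 5.88% and 7.32% in the libraries with XY018. Of 11 adherens junction genes none passed 1.5-fold in any of the 4 comparisons of HCC70. In MDA-MB468 3 fell in each library with XY018, and these were CDH3, CTNNB1 and VCL each time. In the other direction CTNNA1, the gene of α-catenin, rose from 28.4 FPKM with vehicle to 42.7 with XY018 at 1.25 μM and 46.6 with both compounds, and NECTIN4, a nectin, rose from 14.5 to 23.0 with both and from 21.1 to 34.0 with GSK805. CTNNB1 encodes β-catenin, which links cadherins to the cytoskeleton, and was at 118 FPKM with vehicle, 65.7 and 55.0 with XY018, 129 with ATV and 63.4 with both. In the GSK805 pair CTNNB1 was at 98.2 and 101.0 FPKM. VCL encodes the actin-binding protein vinculin and was at 45.3 FPKM with vehicle, 29.6 and 25.1 with XY018 and 28.0 with both, and it fell from 74.6 to 38.9 with GSK805. The median log2 ratio of the list at 2.5 μM XY018 was 0.06 in HCC70 and -0.27 in MDA-MB468, beside -0.02 and 0.00 for all genes.

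Of the 17 tight junction genes at most 1 passed in each direction in any comparison with vehicle. In HCC70 only CLDN1 fell, with both compounds, from 48.9 to 28.6 FPKM, while it was at 47.2 and 43.9 with XY018 and 32.8 with ATV. In MDA-MB468 1 gene fell with XY018 at 2.5 μM and 1 with both compounds, CGN each time. CGN encodes the junction protein cingulin and was at 10.2 FPKM with vehicle, 5.81 with XY018 at 2.5 μM and 6.31 with both, and it fell from 19.2 to 11.3 with GSK805. Of 10 desmosome genes in HCC70, 8 had a log2 ratio below 0 with XY018 at 1.25 μM and 9 at 2.5 μM, where the median was -0.29 beside -0.02 for all genes, and 1 and 2 of them passed 1.5-fold. PKP1, a plakophilin, fell from 42.0 FPKM to 25.7 and 23.2 at these doses. DSC2, a desmosomal cadherin, fell in HCC70 from 28.9 FPKM to 18.8 with XY018 at 2.5 μM and 17.3 with both compounds. In MDA-MB468 DSC2 fell from 21.5 to 13.3 FPKM with XY018 at 2.5 μM, the only 1 of 8 desmosome genes compared there. With GSK805 the desmosomal cadherin DSC3 rose from 17.3 to 28.6 FPKM.

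Among the genes of hemidesmosomes and laminin-332, 8 of 9 could be compared in HCC70 and none passed, where LAMB3, a chain of that laminin, was at 122 FPKM with vehicle and 145 with both compounds. In MDA-MB468 the tetraspanin gene CD151 fell in all 3 libraries with XY018, from 123 FPKM to 79.7, 66.6 and 75.6. ITGA6, which encodes the α6 partner of ITGB4, was at 34.5 FPKM with vehicle there and fell to 20.1 with XY018 at 2.5 μM and 22.2 with both. LAMB3 rose from 6.52 FPKM to 10.3 with XY018 at 1.25 μM and 12.7 with both compounds. The list thus had 1 gene higher and 1 lower of 7 at 1.25 μM, 2 lower at 2.5 μM, and 1 higher and 2 lower with both. Of 19 genes of the epithelial surface and identity, 3 rose and 3 fell in MDA-MB468 with XY018 at 2.5 μM and with both, against 28.6% and 25.2% of all genes. ELF3, an epithelial transcription factor, rose in MDA-MB468 from 84.6 FPKM to 140.0, 158 and 187 in the libraries with XY018, and in HCC70 from 160.1 to 240.5 with both compounds. With GSK805 OVOL2, an epithelial transcription factor, rose from 6.42 to 14.1 FPKM.

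Of 12 mesenchymal transcription factors, 3 reached 1 FPKM in HCC70 and 5 in MDA-MB468. SNAI1, which encodes the SNAI2 relative Snail, was at 7.25 FPKM in HCC70 with vehicle and 5.36 and 6.74 with XY018. It was at 9.56 with ATV and 9.80 with both compounds there, and each of these values was within 1.5-fold of vehicle. In MDA-MB468 it was at 2.29 FPKM with vehicle, 3.26 and 2.66 with XY018 and, past 1.5-fold, 3.64 with ATV and 4.57 with both, and it rose from 2.65 to 8.74 with GSK805. TCF3, which encodes the E-box-binding E2A proteins, stayed within 1.5-fold in MDA-MB468, at 54.1 FPKM with vehicle and 45.4 with XY018 at 2.5 μM. TWIST1, a transcription factor named here after its values were seen, was at 1.52 FPKM with vehicle, 3.28 and 3.19 with XY018, 2.13 with ATV and 4.79 with both, and at 6.45 and 9.91 in the GSK805 pair. It was the only gene of this list that rose in all 4 MDA-MB468 libraries with an antagonist.

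The 27 genes of mesenchymal structure and matrix moved in both directions in MDA-MB468. With XY018 at 2.5 μM 4 of the 10 compared rose and 5 fell, with a median log2 ratio of -0.61 beside 0.00 for all genes and with 28.6% of all genes past 1.5-fold. In HCC70 none of 11 passed at that dose, against 5.88% of all genes. TNC, which encodes the matrix protein tenascin-C, was at 5.76 FPKM in MDA-MB468 with vehicle, fell to 1.81 and 1.27 with XY018 and 2.67 with both, and was at 5.90 with ATV. With GSK805 it fell from 11.5 to 1.46 FPKM. In HCC70 TNC was at 64.3 FPKM with vehicle and 43.6 with both, a log2 ratio of -0.56. VIM, LOX and COL1A1 rose and TNC, MMP2 and COL5A2 fell in all 3 libraries of MDA-MB468 with XY018, where LOX, COL1A1, MMP2 and COL5A2 are named after their values were seen. LOX, a collagen-crosslinking enzyme, was at 4.56 FPKM with vehicle and at 10.3, 10.5 and 7.95 in these libraries. MMP2, a matrix metalloproteinase, was at 3.14 FPKM with vehicle and at 0.92, 0.81 and 0.55 in these libraries.

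Among 9 integrin genes for fibronectin and laminin, of which 8 could be compared, 1 rose with XY018 in HCC70 at both doses and with both compounds, and it was ITGA2 each time. ITGA2, a collagen and laminin receptor chain, was at 23.7 FPKM with vehicle, 37.1 and 43.0 with XY018, 26.6 with ATV and 43.6 with both. ITGB8 fell in HCC70 from 7.37 FPKM to 4.79 with XY018 at 2.5 μM and 3.33 with both compounds. In MDA-MB468 3 of 8 compared fell with XY018 at 2.5 μM, against 28.6% of all genes, among them ITGB5, from 47.3 to 24.98 FPKM, and it was at 24.5 with both. Of 15 genes of the TGF-β pathway, which drives the epithelial-mesenchymal transition in many cells, TGFB2 had the log2 ratio furthest from 0 in 4 of the 5 comparisons ranked, among genes at 5 FPKM or above. Below that level TGFB3 and SMAD4 were further from 0 with GSK805, at 4.26 and 0.17 FPKM with vehicle and 1.04 and 1.05 with GSK805. TGFB2, a ligand gene, was at 24.1 FPKM in MDA-MB468 with vehicle and 16.6 with ATV. It fell to 9.43, 5.75 and 5.04 in the libraries with XY018, and from 27.6 to 12.6 with GSK805. In HCC70 TGFB2 was at 8.36 FPKM with vehicle, 9.05 and 7.25 with XY018, and it fell to 4.5 with ATV and 3.14 with both. INHBA, the gene of the activin βA chain, fell in HCC70 from 5.26 FPKM to 3.45 and 2.61 with XY018 at 1.25 and 2.5 μM. With XY018 at 2.5 μM 1 of 14 genes of the list rose and 1 fell in HCC70, against 5.88% of all genes. In MDA-MB468 1 of 12 rose and 3 fell, against 28.6%. TGFB1 and TGFBI are named here after their values were seen. TGFB1 rose in HCC70 from 3.75 FPKM to 6.29 with XY018 at 2.5 μM, 5.78 with ATV and 6.75 with both. TGFBI rose in MDA-MB468 from 1.34 FPKM to 2.83, 3.52 and 3.44 in the libraries with XY018.

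**Figure D4:**
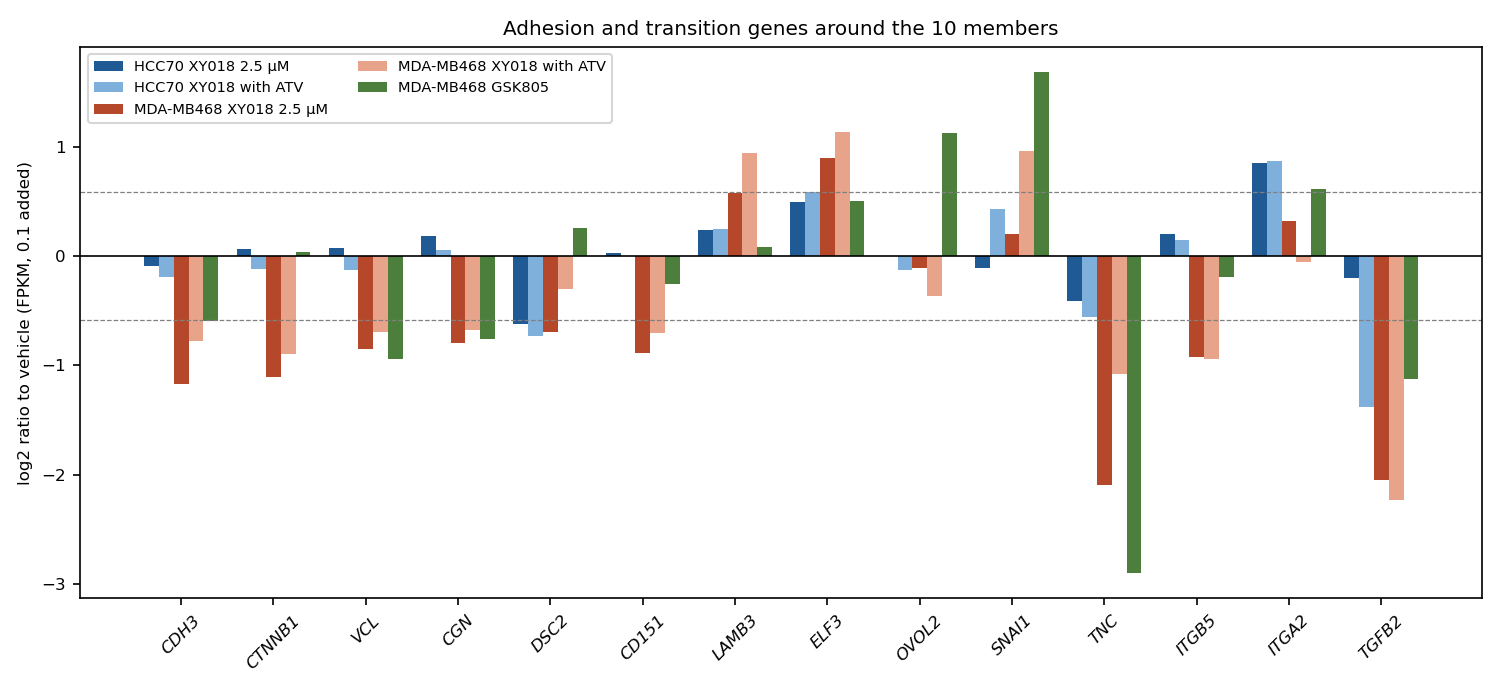
Log2 ratio to vehicle (y axis, 0.1 added) of CDH3 and of genes of the surrounding lists that the naming rule gave (x axis), with bars for XY018 at 2.5 μM and with ATV in HCC70 (blue) and MDA-MB468 (red) and for GSK805 (green), 1 library each, and dashed lines at 1.5-fold. In MDA-MB468 TGFB2 is at -2.05 with XY018 at 2.5 μM and -1.12 with GSK805.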

How the data were processed

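RNA-seq of 12 libraries was used. Per the labels and the methods of the study, libraries were made with the Illumina TruSeq kit, and the authors ran BWA and Bowtie against GRCh37, then Cufflinks (versions not given in the sources used here). The deposited values, in 3 tables that the authors normalized separately, are taken as FPKM, although the headers name no unit. The members and the 14 gene lists were chosen with earlier results of these data known. Genes are named if they are members, have the largest absolute log2 ratio of their list in any of 5 comparisons (XY018 at 2.5 μM and with ATV in both lines, and GSK805) among genes at 5 FPKM or above, or belong to the marker check, and some of them are not reported here. Where a symbol had several entries, the most abundant was kept. Depth was estimated from the spacing of FPKM values of genes with a single transcript, with offsets of 0 to 240 nt to the length, and fragments per gene from FPKM, MANE length and depth. The scripts were tested on simulated data. Gene positions come from GENCODE annotation on GRCh37. A total of 0 value columns had no sample. Alternatives were pseudocounts of 1 and 0.01, no filter or one at 5 FPKM, rescaling to a median of 0, a 2-fold threshold, the other vehicle for GSK805, and percentiles among genes of all tables without a filter on FPKM. The software was Python 3.11.15 with pandas 2.3.3, numpy 2.4.6, matplotlib 3.10.9 and scipy 1.17.1.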

Additional observations from a re-analysis of the deposited data

Results flagged for a closer look

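CLDN7 and VIM lay on opposite sides of vehicle in the 2 lines in all 3 libraries with XY018, and the difference between the lines was not tested because no condition has a replicate. For CLDN7 at 2.5 μM XY018 the log2 ratio was 0.21 in HCC70 and -0.16 in MDA-MB468, both short of 1.5-fold. For VIM it was -0.49 in HCC70, where the counting interval (-1.44 to 0.38) includes 0, and 1.30 in MDA-MB468.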

How the results depend on the processing

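No paired analysis was possible because each condition has 1 library, and for the same reason no replicate could be left out. Of the counts of members past 1.5-fold recomputed under an alternative, 76 stayed within 1.5 times and 16 did not. With a pseudocount of 0.01 the count in HCC70 with both compounds was 1 (VIM, lower) in place of 0. With a pseudocount of 1 it was 0 in place of 1 for ATV in MDA-MB468 and for both compounds over ATV in HCC70 (VIM in each). A filter at 5 FPKM gave 0 in place of 1 in the same comparisons and for the dose step in HCC70. Without a filter ZEB1 gave 1 in place of 0 for the dose step in MDA-MB468 and for both compounds over XY018 in HCC70. At 2-fold the count was 0 for XY018 at 1.25 μM, ATV and GSK805 in MDA-MB468 and for the dose step and both compounds over ATV in HCC70, and 1 (VIM) for both compounds in MDA-MB468 against vehicle and against ATV. Against the vehicle of the XY018 experiment, in another table, GSK805 gave 5 risen genes (CDH1, CLDN7, VIM, FN1 and ITGB4), and the log2 ratio turned to 0.49 for CDH3 and 4.34 for VIM. Rescaling to a median of 0 moved no count by over 1.5 times. Of the single log2 ratios 388 moved by less than their counting interval, 7 moved by more and the named 2 changed sign. Summing both CDH3 entries, an alternative chosen after seeing the data, left the GSK805 count at 2. Of the ratios within a library 15 moved with a pseudocount of 1, all of them ratios to VIM in HCC70, and 45 did not. Among genes listed in all tables all 25 percentiles moved to higher values, most for VIM in HCC70 vehicle, from 3.25 to 31.3. Genes below 1 FPKM were counted in that set, whereas the main percentiles left them out. VIM in HCC70 and ZEB1 in all libraries are limited by depth.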

Other observations

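Among the 4 keratin genes of simple epithelium in MDA-MB468, only KRT8 passed 1.5-fold in every library with an antagonist. Of all genes 18.1% and 28.6% passed with XY018 at 1.25 and 2.5 μM, 25.2% with both compounds and 34.2% with GSK805. KRT8 fell from 918 FPKM with vehicle to 567 and 468 with the lower and higher dose of XY018 and 509 with the combination, and from 967 to 422 with GSK805, while it was at 817 with ATV. Its partner KRT18 was at 652 FPKM with vehicle and 517 with XY018 at 2.5 μM, within 1.5-fold, and fell from 513 to 317 with GSK805. KRT19 fell with XY018 at 2.5 μM, from 1109 to 710 FPKM, and was within 1.5-fold at 847 and 747 with the lower dose and the combination and at 2839 against 3482 with GSK805. KRT7 was at 689 FPKM with vehicle and 664, 563 and 479 in the libraries with XY018, within 1.5-fold, and fell from 1212 to 668 with GSK805. In HCC70 KRT8 was at 313 FPKM with vehicle, 272 and 285 with XY018 and 217 with both compounds, within 1.5-fold throughout.

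Among the growth factor receptors of the marker check, ERBB2 was at 25.6 FPKM in MDA-MB468 with vehicle and at 35.4, 34.9 and 30.9 in the libraries with XY018, within 1.5-fold, and it rose from 35.2 to 57.7 with GSK805. EGFR was at 944 FPKM with vehicle, 784 and 638 with XY018, 891 with ATV and 751 with both, and at 617 and 741 in the GSK805 pair, within 1.5-fold in each. In HCC70 ERBB2 was between 25.3 and 28.8 FPKM and EGFR between 45.4 and 52.5 in all 5 libraries.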
